A study of Mus musculus with 34 samples.

Results

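The genes described here are 10 transcripts used to recognise macrophages of the liver and other tissues, taken by symbol from the 78298 genes of the deposited count table. They are the resident Kupffer cell markers Clec4f, Vsig4, Timd4, Marco and Cd5l, the broader tissue macrophage markers Adgre1, Cd163 and Csf1r, and Trem2 and Gpnmb, which mark lipid-associated macrophages. The rule uses gene symbols and no measured value. All 10 passed the filter on low counts and were tested among 14980 genes.

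They were followed by bulk messenger RNA sequencing of whole liver from WT mice, which carry a floxed Sirt1 gene without Cre, and from SIRT1intKO littermates, in which Villin-Cre deletes that floxed gene in the intestinal epithelium. Per the study's methods the mice were adult males of the C57/Bl6 background. Livers were taken untreated (0 hours) or 6 or 24 hours after partial hepatectomy (PHx), the surgical removal of most of the liver. The groups held 6, 6 and 4 WT livers and 6, 5 and 7 SIRT1intKO livers at 0, 6 and 24 hours. The left lateral and median lobes were resected, so tissue after PHx came from the lobes left in place. Each liver gave 1 library and was called a biological replicate in the labels. The p-values therefore measure the spread between mice.

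Kupffer cells are the macrophages that live inside the liver sinusoids. They capture bacteria, complement-coated particles and old red blood cells from portal blood, and they depend on signals through the CSF1 receptor for survival. After tissue loss or injury, monocytes can enter the liver and take up parts of the Kupffer cell program, and macrophages that handle lipid and cell debris switch on Trem2 and Gpnmb. In bulk liver, fewer cells of a type and less RNA per cell cannot be told apart.

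Library depth was 14892098 to 23480480 counts, with a median of 16807329. By design Sirt1 is not deleted in the liver, and its level in CPM, counts scaled to library size, was 8.35 to 23.1 in WT livers and 6.92 to 16.3 in SIRT1intKO livers. The difference between the genotypes was -0.02, -0.13 and -0.65 on the log2 scale at 0, 6 and 24 hours, with adjusted p values of 1.0, 0.933 and 0.0726. On the first principal component, which held 40.7% of the variance, 3 libraries at 24 hours stood apart from the others of their time point. They were WT replicates 3 and 4, at 8.02 and 17.64, and SIRT1intKO replicate 5, at -8.1, while the other 8 libraries lay between -95.94 and -49.65. Results at 24 hours are given with these 3 livers, and without them where that changed a call. Without them, replicates 1 and 2 were the only WT livers at 24 hours. In the numbers of the libraries these 3 follow one another, across the genotypes, and a difference in their handling was not tested. The libraries at 0 hours carry a number series of their own, so a difference in handling cannot be told apart from the effect of PHx in comparisons with 0 hours. The libraries at 6 and 24 hours share a number series, but neighbouring numbers in it are mostly of the same time point. Handling that follows these runs cannot be fully told apart from time in comparisons of 24 with 6 hours.

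A gene was called when its Benjamini-Hochberg adjusted p in edgeR's quasi-likelihood test was under 0.05 and its absolute log2 fold change was over 1. Fold changes are on the log2 scale and are followed by their standard error (SE). Trem2 and Gpnmb, with at most 9 and 13 counts per liver at 0 hours, passed the filter on low counts through livers after PHx. That they were tested at all therefore depended on the groups in which they were higher.

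Promoter sequence is shown for the 4 genes whose change over the time course differed most in kind, the falling Kupffer lectin Clec4f and the rising Marco, Trem2 and Gpnmb. RefSeq on GRCm38.p6 was searched, with entries on 1 chromosome left out, and the 250 bases before the transcription start were taken for 8 of the 10 genes. The windows printed are chr6:83656117-83656366 on the minus strand for Clec4f, chr1:120505025-120505274 on the minus strand for Marco, chr17:48346151-48346400 on the plus strand for Trem2 and chr6:49036268-49036517 on the plus strand for Gpnmb. Capitals mark matches on either strand to the core of PU.1 sites (GAGGAA), a MAF half-site (TGCTGA), the M-box (CATGTG) or the E-box (CACGTG), which do not overlap one another in these windows.
Clec4f: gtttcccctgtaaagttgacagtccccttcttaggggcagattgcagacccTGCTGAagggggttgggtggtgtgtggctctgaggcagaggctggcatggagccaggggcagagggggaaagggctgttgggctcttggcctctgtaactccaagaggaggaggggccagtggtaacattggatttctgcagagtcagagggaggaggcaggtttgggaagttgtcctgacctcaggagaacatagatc
Marco: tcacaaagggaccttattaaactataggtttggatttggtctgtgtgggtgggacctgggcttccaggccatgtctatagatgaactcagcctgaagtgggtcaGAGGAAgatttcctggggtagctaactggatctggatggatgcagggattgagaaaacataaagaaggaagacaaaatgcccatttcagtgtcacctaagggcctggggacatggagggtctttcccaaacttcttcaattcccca
Trem2: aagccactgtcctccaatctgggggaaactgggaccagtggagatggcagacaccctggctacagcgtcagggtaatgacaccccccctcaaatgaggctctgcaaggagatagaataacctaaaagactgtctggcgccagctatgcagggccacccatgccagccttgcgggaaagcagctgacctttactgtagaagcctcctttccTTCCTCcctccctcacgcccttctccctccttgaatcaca
Gpnmb: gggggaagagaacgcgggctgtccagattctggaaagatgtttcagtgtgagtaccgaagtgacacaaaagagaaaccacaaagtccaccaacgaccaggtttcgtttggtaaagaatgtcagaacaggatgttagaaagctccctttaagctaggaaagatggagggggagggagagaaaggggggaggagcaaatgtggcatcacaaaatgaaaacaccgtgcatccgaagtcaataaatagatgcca
Clec4f held a MAF half-site 199 bases before the start, Marco a PU.1 core 146 bases before it and Trem2 a PU.1 core 40 bases before it. Gpnmb held no match to any of these letters in this window. Over the 8 windows, 4 held the PU.1 core, 3 the MAF half-site, 1 the M-box and 0 the E-box. Among 32851 mouse promoter windows of the same length, the shares were 23.3% for the PU.1 core, 16.1% for the MAF half-site, 12.3% for the M-box and 6.02% for the E-box. These matches are a description of the letters and not of binding.

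After PHx the resident markers other than Marco were lower or not called, whereas Marco, Trem2 and Gpnmb were higher or not called, in every comparison with 0 hours. Clec4f, the C-type lectin that in mice is found on Kupffer cells, fell in both genotypes by 24 hours. At 0 hours it lay between 22.1 and 81.5 CPM in WT livers (median 62.7) and between 51.2 and 98.8 CPM in SIRT1intKO livers (median 68.6). At 6 hours the 6 WT livers spanned 23.4 to 61.5 CPM (median 42.8), and the 5 SIRT1intKO livers had 35.1, 37.8, 40.8, 33.9 and 26.7 CPM. At 24 hours the 4 WT livers had 32.3, 6.0, 26.2 and 22.6 CPM, and the 7 SIRT1intKO livers lay between 12.6 and 28.7 CPM (median 19.4). In SIRT1intKO mice no liver after PHx reached the lowest liver at 0 hours, while in WT mice both later groups overlapped with 0 hours. At 24 hours the overlap was with replicate 2 at 0 hours alone (22.1 CPM), and at 6 hours replicates 5 and 6 (54.2 and 61.5 CPM) also lay above replicate 4 at 0 hours (51.0 CPM).

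Clec4f fell 3.55-fold in SIRT1intKO livers at 24 hours against 0 hours (log2 fold change -1.83, SE 0.284, adjusted p = 5.33e-06) and 2.73-fold in WT livers (-1.45, SE 0.341, adjusted p = 0.00166). At 6 hours the change was -1.07 in SIRT1intKO livers (SE 0.31, adjusted p = 0.00696) and -0.46 in WT livers (SE 0.29, adjusted p = 0.217). The call at 6 hours in SIRT1intKO livers was lost without replicate 6 at 0 hours, where the change was -0.97. The group means, 73.1 ± 19.2, 34.8 ± 5.31 and 20.6 ± 6.2 CPM (SD, n = 6, 5 and 7) in SIRT1intKO livers and 59.5 ± 21.4, 43.2 ± 13.6 and 21.8 ± 11.2 CPM (SD, n = 6, 6 and 4) in WT livers, put both genotypes in the same order of time. In the order of the 6 means, 1 of the 5 neighbouring pairs differed by more than the larger SD, SIRT1intKO at 6 hours and WT at 24 hours.

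**Figure D1:**
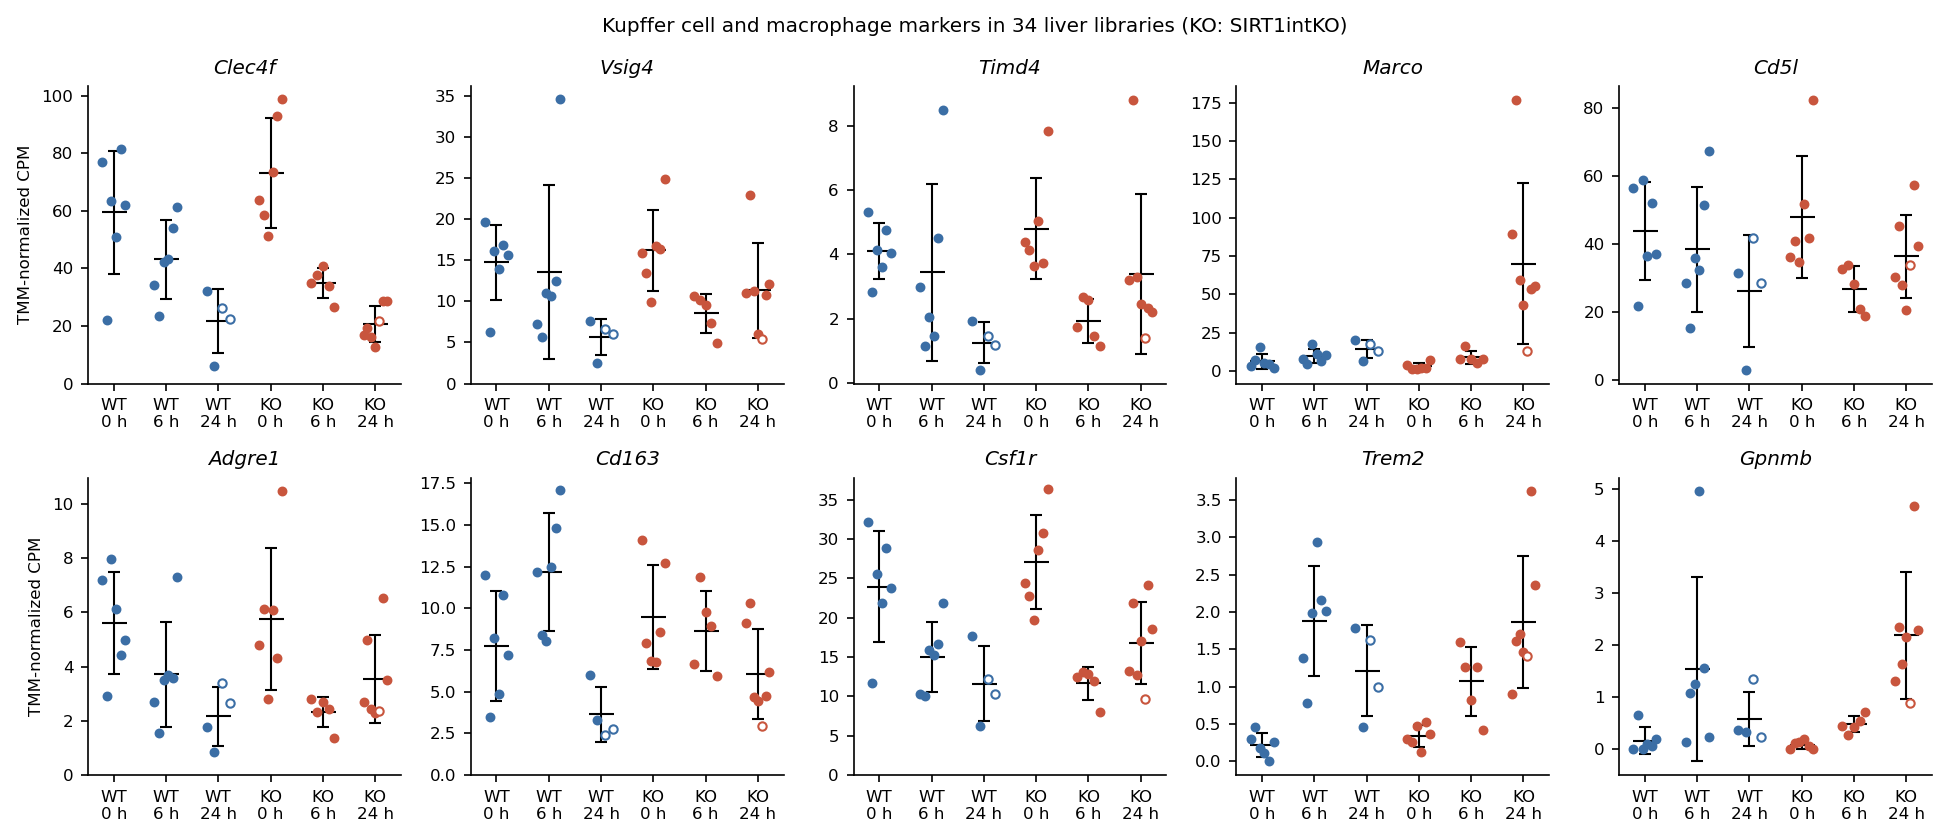
CPM of the 10 macrophage genes in each of the 34 livers, by genotype and time after PHx, with 1 panel per gene. Points are livers, bars are the mean ± SD, and open symbols are the 3 livers that stood apart at 24 hours. Clec4f lies between 12.6 and 28.7 CPM in SIRT1intKO livers at 24 hours against 51.2 to 98.8 at 0 hours, and Marco lies between 13 and 177.0 against 1.38 to 7.51.

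Vsig4, the complement receptor CRIg with which Kupffer cells take up opsonised bacteria, moved less evenly. In WT livers it lay between 6.28 and 19.7 CPM at 0 hours (median 15.9) and between 5.62 and 34.6 CPM at 6 hours (median 10.8), and the 4 livers at 24 hours had 7.56, 2.46, 6.6 and 5.97 CPM. In SIRT1intKO livers it lay between 9.9 and 24.9 CPM at 0 hours (median 16.1), was 10.6, 10.2, 9.5, 7.34 and 4.97 CPM at 6 hours, and lay between 5.4 and 23 CPM at 24 hours (median 11). Vsig4 fell in WT livers at 24 hours, by 1.38 against 0 hours (SE 0.422, adjusted p = 0.0118) and by 1.26 against 6 hours (SE 0.421, adjusted p = 0.0377). Without WT replicate 2 at 24 hours these changes were -1.13 (adjusted p = 0.068) and -0.99 (adjusted p = 0.142), and neither was then called. In SIRT1intKO livers Vsig4 was not called at either time, with log2 fold changes of -0.93 at 6 hours (SE 0.383, adjusted p = 0.0547) and -0.52 at 24 hours (SE 0.342, adjusted p = 0.21). The change at 6 hours was called without replicate 1 at 6 hours (-1.05, adjusted p = 0.0449), without replicate 2 or 3 at 0 hours (-1.01 and -1.03, adjusted p = 0.0476 and 0.0398) and under upper-quartile scaling (-1.0, adjusted p = 0.0381).

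Timd4, the phosphatidylserine receptor TIM-4 that binds apoptotic cells and marks long-lived resident macrophages, rested on 7 to 126 counts per liver. WT livers had 2.81 to 5.31 CPM at 0 hours (median 4.09), 1.14 to 8.48 CPM at 6 hours (median 2.52), and 1.91, 0.4, 1.47 and 1.19 CPM at 24 hours. SIRT1intKO livers had 3.62 to 7.82 CPM at 0 hours (median 4.26), 1.73, 2.68, 2.58, 1.46 and 1.14 CPM at 6 hours, and 1.41 to 8.81 CPM at 24 hours (median 2.44). Every WT liver at 24 hours lay below every WT liver at 0 hours, and every SIRT1intKO liver at 6 hours lay below every SIRT1intKO liver at 0 hours. Timd4 fell by 1.72 in WT livers at 24 hours (SE 0.488, adjusted p = 0.00717) and by 1.32 in SIRT1intKO livers at 6 hours (SE 0.439, adjusted p = 0.0171). In SIRT1intKO livers at 24 hours the change was -0.52 and was not called (SE 0.383, adjusted p = 0.259).

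Cd5l, the secreted apoptosis inhibitor of macrophages, was called in no comparison. Its means were 43.8 ± 14.4, 38.5 ± 18.4 and 26.1 ± 16.6 CPM in WT livers (SD, n = 6, 6 and 4) and 48.0 ± 18, 26.8 ± 6.7 and 36.4 ± 12.3 CPM in SIRT1intKO livers (SD, n = 6, 5 and 7). The 5 SIRT1intKO livers at 6 hours, with 32.5, 33.7, 28.1, 20.8 and 18.9 CPM, all lay below the lowest SIRT1intKO liver at 0 hours, which had 34.7 CPM, and the change of -0.84 had an SE of 0.394 and an adjusted p of 0.0904. WT replicate 2 at 24 hours, with 2.86 CPM, was far below the other WT livers at 24 hours, which had 28.4 to 41.9 CPM.

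Marco, the scavenger receptor with collagenous structure that binds bacteria and particles, went the other way. At 0 hours it lay between 2.05 and 15.7 CPM in WT livers (median 4.87) and between 1.38 and 7.51 CPM in SIRT1intKO livers (median 1.98). At 6 hours the WT livers had 4.9 to 17.6 CPM (median 9.11) and the SIRT1intKO livers 8.08, 16.3, 7.67, 5.46 and 7.79 CPM. At 24 hours the WT livers had 20.2, 6.46, 17.6 and 13.3 CPM and the SIRT1intKO livers, from replicate 1 to 7, had 89.2, 177.0, 59.6, 43.1, 13, 53.5 and 55.3 CPM. Of the 7 SIRT1intKO livers at 24 hours, 6 were above every other liver of the study, and the exception was replicate 5, which stood apart on the principal component as well.

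Marco rose 22.4-fold in SIRT1intKO livers at 24 hours against 0 hours (log2 fold change 4.49, SE 0.54, adjusted p = 1.22e-07) and 7.72-fold against 6 hours (2.95, SE 0.53, adjusted p = 0.000161). It was already higher at 6 hours than at 0 hours (1.54, SE 0.529, adjusted p = 0.0213), a call that was lost without replicate 2 at 6 hours (1.19, adjusted p = 0.0951) and without replicate 2 or 5 at 0 hours (1.35 and 1.40, adjusted p = 0.0537 and 0.0521). In WT livers Marco was not called at 6 hours (0.63, SE 0.486, adjusted p = 0.327) or at 24 hours (1.18, SE 0.527, adjusted p = 0.0808). Without WT replicate 3 at 0 hours, which had 15.7 CPM, the WT change at 24 hours was 1.69 and was called (adjusted p = 0.0158).

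Adgre1, which encodes the F4/80 antigen, Cd163, the haemoglobin-haptoglobin scavenger receptor, and Csf1r, the receptor for CSF1 and IL-34, were each lower in WT livers at 24 hours. Adgre1 fell by 1.36 (SE 0.4, adjusted p = 0.00919), Cd163 by 1.09 (SE 0.351, adjusted p = 0.0162) and Csf1r by 1.04 (SE 0.277, adjusted p = 0.00438). The calls for Cd163 and Csf1r lay close to the threshold of 1 and were lost without the 3 livers that stood apart (-0.70, adjusted p = 0.167, and -0.97, adjusted p = 0.023). The call for Cd163 was also lost without any 1 of WT replicates 2, 3 and 4 at 24 hours and 1 and 5 at 0 hours, and that for Csf1r without any 1 of replicates 2 and 4 at 24 hours and 1 and 5 at 0 hours, with changes between -1.05 and -0.93 for Cd163 and between -0.99 and -0.84 for Csf1r. The call for Adgre1 was lost without WT replicate 2 at 24 hours (-1.10, adjusted p = 0.056). In SIRT1intKO livers Adgre1 and Csf1r fell at 6 hours, by 1.31 (SE 0.371, adjusted p = 0.00592) and 1.22 (SE 0.258, adjusted p = 0.000426). In WT livers at 6 hours neither was called, with Adgre1 at -0.60 (SE 0.341, adjusted p = 0.172) and Csf1r at -0.67 (SE 0.24, adjusted p = 0.0272). None of the 3 genes had a called interaction at 6 hours. At 24 hours none of the 3 was called in SIRT1intKO livers, where the changes were -0.70, -0.66 and -0.69. That of Csf1r had an adjusted p of 0.0124 and missed the fold threshold alone.

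Csf1r was 11.7 to 32.1 CPM in WT livers at 0 hours (median 24.6), 10 to 21.9 CPM at 6 hours (median 15.6) and 17.7, 6.23, 12.2 and 10.3 CPM at 24 hours. In SIRT1intKO livers it was 19.7 to 36.3 CPM at 0 hours (median 26.5), 12.5, 13.1, 12.8, 11.9 and 8.03 CPM at 6 hours, and 9.67 to 24.1 CPM at 24 hours (median 17). The SIRT1intKO livers at 6 hours all lay below those at 0 hours. Cd163 in WT livers was at 3.47 to 12 CPM at 0 hours (median 7.7), 8.04 to 17.1 CPM at 6 hours (median 12.3) and 6.03, 3.31, 2.41 and 2.79 CPM at 24 hours. Its change at 6 hours against 0 hours was not called in WT livers (0.65, SE 0.297, adjusted p = 0.0831). In SIRT1intKO livers its medians were 8.27, 8.92 and 4.73 CPM at 0, 6 and 24 hours. Every WT liver at 24 hours lay below every WT liver at 6 hours, and Cd163 fell 3.36-fold between them (-1.75, SE 0.357, adjusted p = 0.00117).

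Trem2, a lipid-sensing receptor that signals through the adaptor encoded by Tyrobp, was near the detection limit before PHx. At 0 hours the WT livers held 0 to 9 counts (0.0 to 0.46 CPM, median 0.218) and the SIRT1intKO livers 2 to 8 counts (0.133 to 0.524 CPM, median 0.334). At 6 hours the WT livers had 0.777 to 2.94 CPM (median 2.01) and the SIRT1intKO livers 1.6, 1.27, 0.818, 1.27 and 0.419 CPM. At 24 hours the WT livers had 1.78, 0.457, 1.62 and 0.996 CPM and the SIRT1intKO livers 0.903 to 3.62 CPM (median 1.61), the latter resting on 15 to 95 counts. The WT livers at 6 hours and the SIRT1intKO livers at 24 hours lay wholly above their 0-hour groups.

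Trem2 rose in all 4 comparisons with 0 hours, by 3.04 in WT livers at 6 hours (SE 0.463, adjusted p = 5.92e-06), by 2.42 in WT livers at 24 hours (SE 0.497, adjusted p = 0.00046), by 1.62 in SIRT1intKO livers at 6 hours (SE 0.47, adjusted p = 0.0065) and by 2.43 in SIRT1intKO livers at 24 hours (SE 0.432, adjusted p = 3.29e-05). The size of these changes rests on the few counts at 0 hours. On the livers at 0 hours alone Trem2 would not have passed the filter on low counts, so these rises are given as a description. Between 6 and 24 hours Trem2 was not called in WT livers (-0.63, SE 0.446, adjusted p = 0.358) or in SIRT1intKO livers (0.81, SE 0.408, adjusted p = 0.138).

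Gpnmb, a transmembrane glycoprotein of phagocytes with large lysosomes, held even fewer counts at 0 hours, 0 to 13 in WT livers and 0 to 3 in SIRT1intKO livers, with 2 livers of each genotype at 0. At 6 hours the WT livers had 0.146 to 4.97 CPM (median 1.16) and the SIRT1intKO livers 0.449, 0.282, 0.44, 0.546 and 0.719 CPM. At 24 hours the WT livers had 0.369, 0.343, 1.36 and 0.249 CPM and the SIRT1intKO livers 0.892 to 4.69 CPM (median 2.17), on 19 to 123 counts. In SIRT1intKO mice the 3 times did not overlap, and in WT mice the livers at 6 hours were the most spread. Like Trem2, Gpnmb would not have passed the filter on low counts on the livers at 0 hours alone.

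Gpnmb rose in SIRT1intKO livers by 4.56 at 24 hours against 0 hours (SE 0.795, adjusted p = 2.53e-05) and by 2.15 at 24 hours against 6 hours (SE 0.677, adjusted p = 0.0179). It also rose at 6 hours, by 3.06 in WT livers (SE 0.723, adjusted p = 0.00121) and by 2.41 in SIRT1intKO livers (SE 0.895, adjusted p = 0.0328), and the latter call was lost without replicate 4 or 5 at 6 hours or replicate 1, 5 or 6 at 0 hours, with changes of 2.14 to 2.33. In WT livers at 24 hours the change of 1.66 was not called (SE 0.808, adjusted p = 0.111), and it was 2.89 and called without WT replicate 2 at 0 hours, which held 13 counts (adjusted p = 0.0142).

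Counted over the 10 genes, 2 were called higher and 0 lower in WT livers at 6 hours against 0 hours, where 7.17% of all tested genes were called higher and 8.4% lower. The 2 were Trem2 and Gpnmb, which had passed the filter on low counts through livers after PHx. An unadjusted p under 0.05 was seen for 4 of the 10 (45.6% of all genes), and DESeq2 also called 0 lower. In WT livers at 24 hours 1 was called higher (8.32% of all genes) and 6 lower (7.4% of all genes), and 9 had an unadjusted p under 0.05 (43.9%). In SIRT1intKO livers 3 were called higher and 4 lower at 6 hours (7.86% and 8.7% of all genes), and 3 higher and 1 lower at 24 hours (11.9% and 11.1% of all genes). An unadjusted p under 0.05 was seen for 9 of them at 6 hours (46.9% of all genes) and for 7 at 24 hours (56.1%). The median log2 fold change of the 5 resident markers at 24 hours was -1.38 in WT livers and -0.52 in SIRT1intKO livers, beside 0.02 and 0.04 over all tested genes, and that of Trem2 and Gpnmb was 2.04 and 3.49. Groups that did not overlap were seen for 1 of the 10 genes in WT livers at 6 hours (11.5% of all genes lay higher without overlap and 12.6% lower) and for 1 at 24 hours (9.38% and 9.89%). In SIRT1intKO livers they were seen for 5 genes at 6 hours (13.2% and 13%) and for 4 at 24 hours (11% and 10.9%).

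Between 6 and 24 hours the fitted changes ran mostly downward in WT livers and mostly upward in SIRT1intKO livers. In WT livers 3 of the 10 were called lower (Vsig4, Timd4 and Cd163, beside 2.72% of all genes) and 0 higher (4.44% of all genes), with 4 at an unadjusted p under 0.05 (30.2% of all genes) and 0 called higher by DESeq2 too. The call for Timd4 (-1.46, SE 0.488, adjusted p = 0.0379) was lost without replicate 2, 3 or 4 at 24 hours or replicate 5 or 6 at 6 hours, with adjusted p values of at most 0.144, and without the 3 livers that stood apart (-1.55, adjusted p = 0.0624). That for Vsig4 was lost without replicate 1, 2 or 4 at 24 hours or replicate 5 or 6 at 6 hours, with adjusted p values of at most 0.172. Clec4f, at -0.99 and an adjusted p of 0.0411, lay just short of the fold threshold. It was called without the 3 livers that stood apart (-1.17, adjusted p = 0.0483), under upper-quartile scaling (-1.01, adjusted p = 0.041), and without any 1 of replicates 1 and 3 at 24 hours and 1 and 2 at 6 hours (-1.22 to -1.02). Adgre1 was also called without the 3 livers that stood apart (-1.48, adjusted p = 0.0317). In SIRT1intKO livers 2 were called higher (Marco and Gpnmb, beside 6.7% of all genes) and 0 lower (3.91% of all genes), with 4 at an unadjusted p under 0.05 (39.7% of all genes) and 0 called lower by DESeq2. The fitted change was below 0 for 9 of the 10 in WT livers and above 0 for 8 of the 10 in SIRT1intKO livers. The exceptions were Marco in WT livers (0.55), and Clec4f (-0.76, SE 0.293, adjusted p = 0.0519) and Cd163 (-0.52) in SIRT1intKO livers. Over all tested genes the median change was 0.01 in WT and -0.01 in SIRT1intKO livers. The 10 genes come from the same livers and several moved together, so their signs are not independent. The difference between the genotypes in the change from 6 to 24 hours was not tested as such. Without overlap lay 1 gene in WT livers, Cd163 (3.53% of all genes higher and 3.83% lower), and 1 in SIRT1intKO livers, Gpnmb (3.79% and 5.01%).

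**Figure D2:**
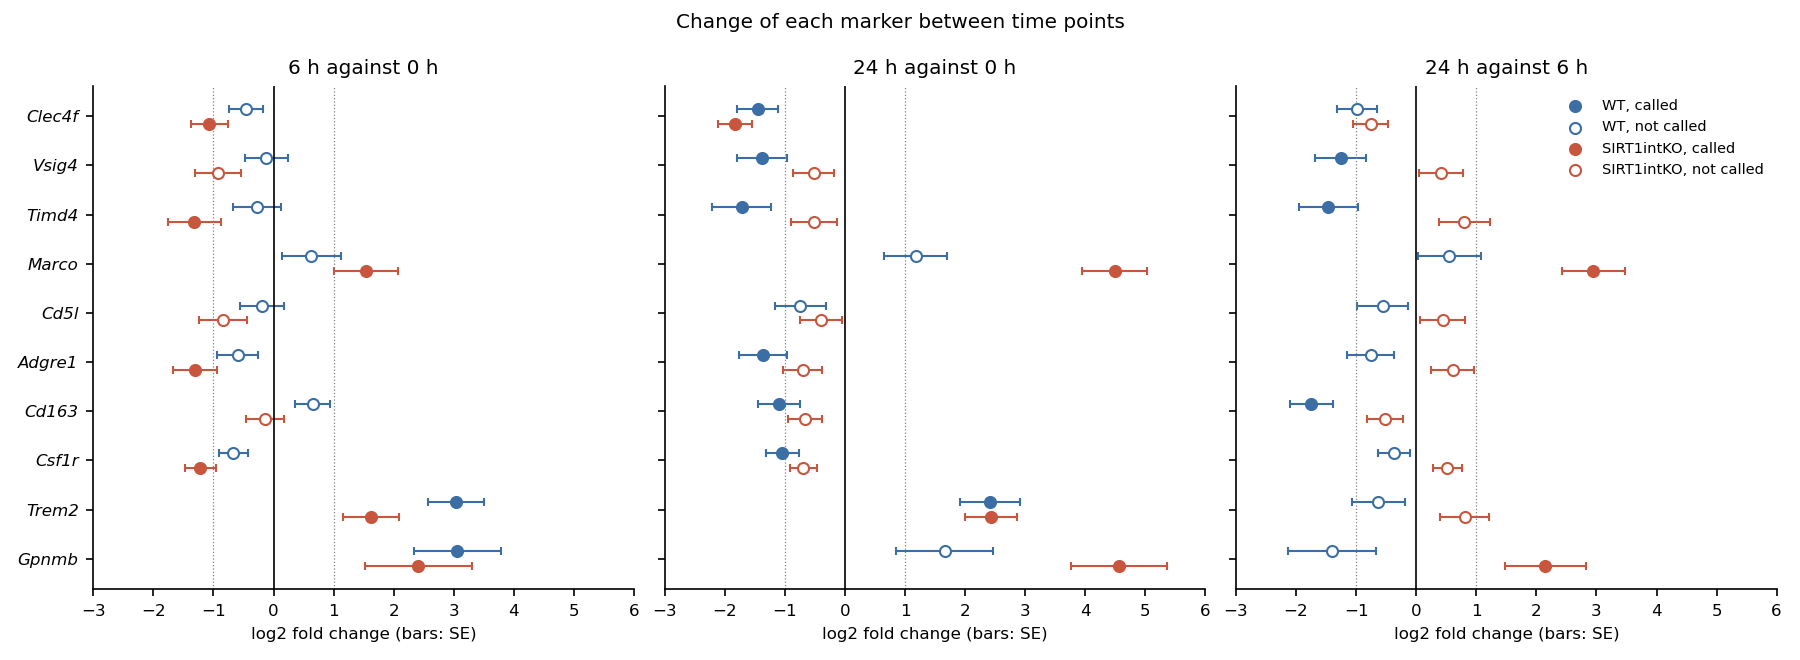
Log2 fold changes of the 10 genes in WT and SIRT1intKO livers at 6 hours against 0 hours, 24 hours against 0 hours and 24 hours against 6 hours, from the edgeR fit, with bars of 1 SE. Filled points were called. Marco and Gpnmb stand at 4.49 and 4.56 in SIRT1intKO livers at 24 hours against 0 hours, while Clec4f stands at -1.45 in WT and -1.83 in SIRT1intKO livers.

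Whether intestinal Sirt1 deletion altered these genes was asked at each time. At 0 hours none of the 10 was called between SIRT1intKO and WT livers (0.0% of all genes were called in either direction), 0 had an unadjusted p under 0.05, where 1.07% of all genes did, and DESeq2 called 0. At 6 hours all 10 fitted differences were below 0, from -0.12 for Marco to -1.65 for Gpnmb, with a median of -0.59 beside 0.01 over all genes. None of them was called (0.0% of all genes in either direction), the smallest adjusted p was 0.745, 1 had an unadjusted p under 0.05, where 6.52% of all genes did, and DESeq2 called 0. The groups overlapped for all 10 genes at both times, where 0.0401% of all genes lay higher and 0.0267% lower without overlap at 0 hours, and 0.254% and 0.22% at 6 hours.

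At 24 hours Marco was the only one of the 10 called, 4.86-fold higher in SIRT1intKO than in WT livers (log2 fold change 2.28, SE 0.556, adjusted p = 0.018). Over all genes 1.38% were called higher and 1.3% lower, and 0 of the 10 genes were called lower by edgeR or DESeq2. The groups overlapped through SIRT1intKO replicate 5. Without the 3 livers that stood apart the difference was 2.59 (adjusted p = 0.0124), and without WT replicate 2 it was 2.03 (adjusted p = 0.0513) and was not called. Fitted with the libraries of the 2 groups alone, the same difference of 2.28 had an adjusted p of 0.256.

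Of the other genes at 24 hours, Gpnmb was 1.90 higher in SIRT1intKO livers (SE 0.715, adjusted p = 0.102), Timd4 1.42 (SE 0.476, adjusted p = 0.0675) and Vsig4 1.00 (SE 0.408, adjusted p = 0.131), none of them called. Timd4 was called by DESeq2 (1.45, adjusted p = 0.0257) and by edgeR without WT replicate 1 (1.67, adjusted p = 0.0459) or SIRT1intKO replicate 5 (1.55, adjusted p = 0.0285), and Gpnmb without WT replicate 3 (2.74, adjusted p = 0.0465). Adgre1, at 0.70 with all livers (SE 0.385, adjusted p = 0.269), was called at 1.52 without the 3 livers that stood apart (adjusted p = 0.0453). That fit rests on WT replicates 1 and 2 alone at 24 hours. Clec4f was at -0.08 (SE 0.317, adjusted p = 0.909), and its sign turned to 0.12 without the 3 livers. Of the 10 genes, 9 had a fitted difference above 0 and 5 an unadjusted p under 0.05, where 23.4% of all genes did.

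The interaction asks whether the change from 0 hours differed between the genotypes. For Marco at 24 hours it was 3.30 (SE 0.748, adjusted p = 0.0699) and was not called. This value takes in a difference between the genotypes at 0 hours of -1.02 (SE 0.512, not called), beside 2.28 at 24 hours. DESeq2 called the interaction (3.33, adjusted p = 0.00236). In edgeR it was called without the 3 livers that stood apart (3.61, adjusted p = 0.0132), without SIRT1intKO replicate 5 at 24 hours (3.48, adjusted p = 0.00716) and without WT replicate 1 at 24 hours (3.49, adjusted p = 0.0395). At 24 hours 0 of the 10 interactions were called (0.00668% of all genes were called higher and 0.0% lower) and 2 had an unadjusted p under 0.05 (12.7% of all genes), those of Marco and Gpnmb (2.90, SE 1.2, adjusted p = 0.305). At 6 hours 0 were called by either tool (0.0% of all genes in either direction) and 1 had an unadjusted p under 0.05 (3.05% of all genes), that of Trem2 (-1.42, SE 0.665, adjusted p = 1.0).

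To set the genes against the Kupffer lectin within a liver, each was expressed per 100 counts of Clec4f, a measure that a change in library scaling cannot move. Marco per 100 Clec4f was 3.31 to 33.3 in WT and 2.04 to 7.61 in SIRT1intKO livers at 0 hours. At 24 hours it was 62.7, 108.0, 67.2 and 58.7 in WT livers and 529.0, 908.0, 373.0, 341.0, 59.6, 187.0 and 193.0 in SIRT1intKO livers. All 11 livers at 24 hours thus lay above all livers at 0 hours, and 6 of the 7 SIRT1intKO livers lay above all WT livers. Clec4f itself fell by 24 hours, 2.73-fold in WT and 3.55-fold in SIRT1intKO livers, which raises this ratio without any change in Marco. The highest WT ratio, 108.0, was that of replicate 2, where Clec4f was at 6.0 CPM. Marco in that liver, at 6.46 CPM, lay inside the WT range at 0 hours. Trem2 per 100 Clec4f was 0.0 to 2.08 at 0 hours and 4.4 to 7.62 at 24 hours in WT livers, and 0.181 to 0.933 and 5.36 to 12.7 in SIRT1intKO livers.

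The resident markers did not keep 1 ratio to each other. Cd5l per 100 Clec4f was 44.9 to 83.6 at 0 hours, 61.5 to 92.7 at 6 hours and 137.0 to 234.0 at 24 hours in SIRT1intKO livers, while in WT livers it was 59.7 to 98.6, 65.5 to 110.0 and 47.6 to 160.0. Csf1r per 100 Clec4f was 33 to 39.0 at 0 hours, 30.1 to 35.6 at 6 hours and 44.3 to 135.0 at 24 hours in SIRT1intKO livers. Vsig4 and Timd4 per 100 Clec4f had medians of 22.8 and 6.96 at 0 hours and of 47.6 and 18.9 at 24 hours in SIRT1intKO livers, and of 25.5 and 6.71 at 0 hours and 25.8 and 5.75 at 24 hours in WT livers. These ratios were not tested.

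**Figure D3:**
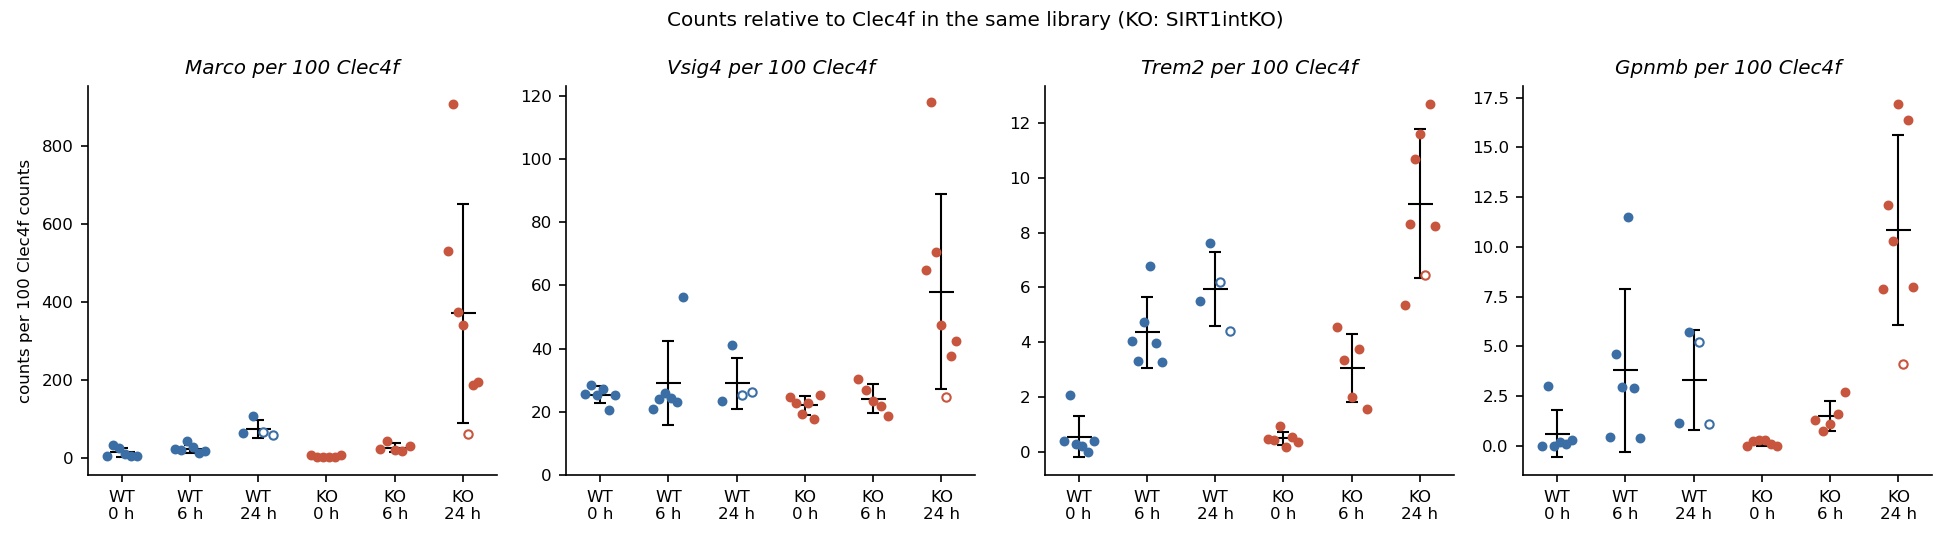
Counts of Marco, Vsig4, Trem2 and Gpnmb per 100 counts of Clec4f in each liver, by genotype and time after PHx, with bars of the mean ± SD and open symbols for the 3 livers that stood apart at 24 hours. Marco lies between 59.6 and 908.0 in SIRT1intKO livers at 24 hours and between 58.7 and 108.0 in WT livers, against 2.04 to 33.3 over all livers at 0 hours.

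Markers of blood-derived myeloid cells were also called higher at 24 hours against 0 hours, where 8.32% of all genes were called higher in WT and 11.9% in SIRT1intKO livers. The 9 monocyte genes were all called higher in SIRT1intKO livers at 24 hours against 0 hours, among them Chil3 (8.77), F13a1 (6.42), Vcan (5.89) and Itgam (3.88), and 5 of the 9 were called higher in WT livers. Chil3 was at 0 counts in 2 of the 34 libraries, and F13a1 and Vcan in 3 each, none of them at 24 hours. The size of these changes thus rests on few counts before 24 hours. Of the 8 neutrophil genes 7 were tested and all 7 were called higher in SIRT1intKO livers, led by Il1r2 (6.12) and S100a8 (5.10), and 4 in WT livers. The summed monocyte genes were 5.25 to 10.4 CPM at 0 hours and 21.5 to 255.0 CPM at 24 hours in SIRT1intKO livers, and 6.44 to 9.14 and 12.5 to 86.5 CPM in WT livers. The summed neutrophil genes were 4.4 to 21.4 CPM at 0 hours and 24.6 to 978.0 CPM at 24 hours in SIRT1intKO livers, and 6.85 to 23.8 and 7.81 to 121.0 CPM in WT livers.

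SIRT1intKO replicate 2 at 24 hours had the highest Marco (177.0 CPM) and the highest monocyte and neutrophil sums (255.0 and 978.0 CPM), and replicate 5 had the lowest of that group for all of these (13, 21.5 and 24.6 CPM). The other 5 livers of that group did not follow the same order. Replicate 1 had Marco at 89.2 CPM with the lowest monocyte sum of the 5, 79.2 CPM, and replicate 6 had 53.5 CPM with the highest, 147.0 CPM. WT replicate 1 at 24 hours had sums of 86.5 and 121.0 CPM, within the range of the SIRT1intKO livers, with Marco at 20.2 CPM. WT replicate 2 had the lowest Marco of its group (6.46 CPM) with the second-highest monocyte sum (41.3 CPM). Clec4f and Cd5l were also the lowest of the group in that liver (6.0 and 2.86 CPM). Between genotypes at 24 hours 4 of the 9 monocyte genes and 1 of the 7 neutrophil genes were called higher in SIRT1intKO livers, such as Ccr2 (1.59) and Csf3r (1.75). Over all genes 1.38% were called higher. Ly6g, which marks neutrophils, was at 0 in 17 of the 34 libraries and in 1 of the 11 at 24 hours, and held at most 11 counts. Over all 34 libraries the gene closest to Marco by correlation of log2 CPM was F13a1, a gene of the monocyte list (Pearson r = 0.87). The part of incoming myeloid cells in the level of Marco was not tested.

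**Figure D4:**
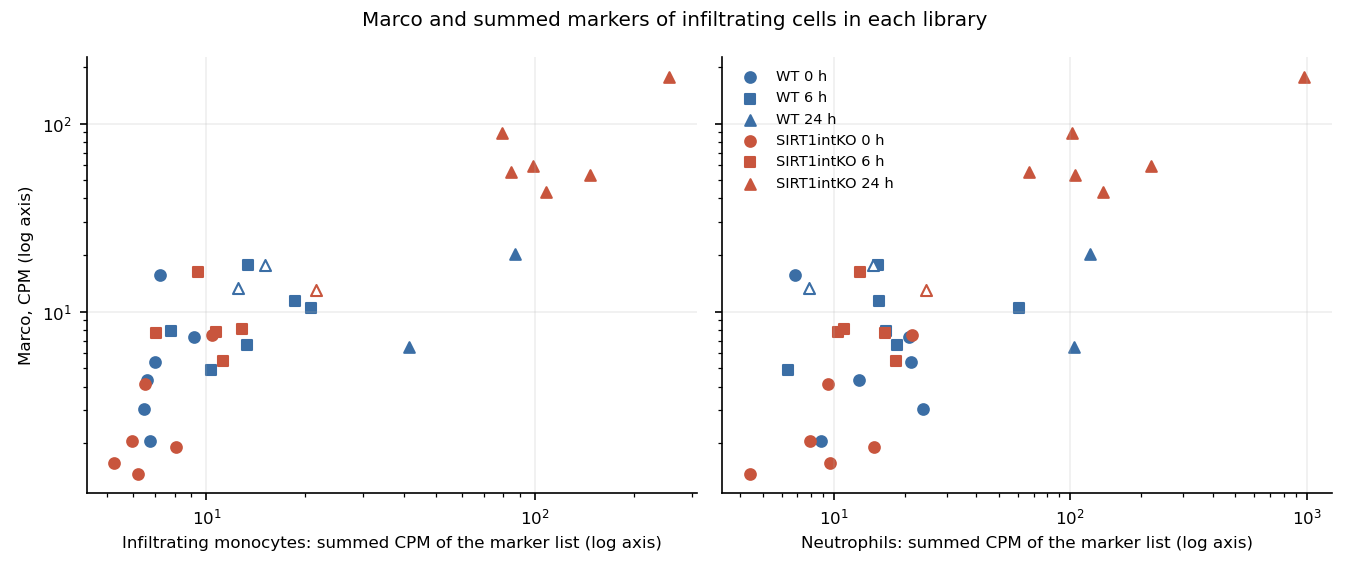
Marco in CPM against the summed CPM of 9 monocyte genes and of 8 neutrophil genes in each of the 34 livers, on log axes, coloured by genotype and time, with open symbols for the 3 livers that stood apart at 24 hours. The 7 SIRT1intKO livers at 24 hours run from 13 CPM of Marco at a monocyte sum of 21.5 to 177.0 CPM at a sum of 255.0, and the WT liver at 24 hours with the highest monocyte sum, 86.5, had 20.2 CPM of Marco.

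Among 13 other Kupffer and macrophage genes, 5 were called lower and 1 higher at 24 hours in each genotype. Over all genes 7.4% were called lower and 8.32% higher in WT livers, and 11.1% and 11.9% in SIRT1intKO livers. In WT livers the largest falls were those of Folr2 (-2.23), which encodes a folate receptor, the langerin gene Cd207 (-1.84), the ficolin gene Fcna (-1.82) and the complement gene C6 (-1.25), and in SIRT1intKO livers C6 changed by -2.55, Cd207 by -2.0, Folr2 by -1.97 and Fcna by -1.62. At 6 hours 3 of the 13 were called lower in SIRT1intKO and 0 in WT livers, beside 8.7% and 8.4% of all genes. Among transcription factors known from Kupffer cells, Id1 (2.11 in WT and 2.63 in SIRT1intKO livers) and Id3 (1.44 and 1.24) were called higher at 24 hours in each genotype, and Maf (-1.10 and -1.10) was called lower.

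Csf1, which encodes a ligand of Csf1r, was 3.94 to 7.59 CPM in WT and 8.46 to 22.5 CPM in SIRT1intKO livers at 24 hours. The groups did not overlap, as was so for 0.915% of all genes in that direction, and Csf1 was called higher in SIRT1intKO livers (1.37, SE 0.28, adjusted p = 0.00779). Il34, the gene of the second ligand, was not called in any comparison, with 0.65 in WT and 0.81 in SIRT1intKO livers at 24 hours against 0 hours (adjusted p = 0.119 and 0.0184).

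Of 14 further genes of lipid-associated macrophages, WT livers had 6 called higher and 0 lower at 24 hours against 0 hours. SIRT1intKO livers had 7 called higher and 1 lower, with Cd63 at 3.58 in WT and 3.53 in SIRT1intKO livers. Over all genes the shares were 8.32% and 7.4% in WT and 11.9% and 11.1% in SIRT1intKO livers. Between genotypes at 24 hours 3 were called higher and 1 lower in SIRT1intKO livers, beside 1.38% and 1.3% of all genes. Those at a mean of 1 CPM or more were Tyrobp (1.42, SE 0.41, adjusted p = 0.0366), Lgals3 (1.36, SE 0.372, adjusted p = 0.0286) and Fabp5 (-1.22, SE 0.374, adjusted p = 0.0483). Tyrobp was 4.36 to 51.9 CPM in SIRT1intKO livers at 24 hours and is expressed by other myeloid cells too. Several genes of this list, such as Plin2 and Cd63, are expressed by hepatocytes, and the summed list was at 1460.0 to 1980.0 CPM already at 0 hours.

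Marker genes of other liver cell types were also called at 24 hours against 0 hours. Over all genes 8.32% were called higher and 7.4% lower in WT livers, and 11.9% and 11.1% in SIRT1intKO livers. In lists of 4 to 7 tested genes, counts of 0 or 1 differ from these shares by 1 gene or less. Of 7 markers of sinusoidal endothelium 5 were called lower in WT livers at 24 hours and 4 in SIRT1intKO livers, where 1 was called higher, and their sum went from 143.0 to 208.0 CPM at 0 hours to 54.0 to 125.0 CPM at 24 hours in WT livers and from 154.0 to 247.0 to 77.4 to 149.0 CPM in SIRT1intKO livers. Of 6 hepatocyte genes 4 and 3 were called lower in WT and SIRT1intKO livers. Of 6 stellate cell genes 0 were called higher and 1 lower in WT livers, and 2 higher and 1 lower in SIRT1intKO livers, and of 4 cholangiocyte genes 2 were called higher in each. Of the 6 dendritic cell genes 4 were tested, and 1 was called higher and 1 lower in SIRT1intKO livers, and 0 in WT livers. Of 5 lymphocyte genes only Cd79a was tested, and it was called lower in both genotypes. Of 5 red blood cell and platelet genes 1 was called higher and 1 lower in WT livers and 3 higher and 1 lower in SIRT1intKO livers.

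By correlation of log2 CPM over all 34 libraries, the genes closest to Clec4f were Folr2 (Pearson r = 0.92), Cd207 (0.90), Sdc3 (0.88), Siglec1 (0.87) and C1qa (0.85). Those closest to Trem2 were ENSMUSG00000143906 (0.85), Apcs (0.85), Jrk (0.83), Lcn2 (0.83) and Gm55330 (0.82). Within the 10 genes Clec4f had an r of 0.60 to 0.77 with Vsig4, Timd4, Cd5l, Adgre1, Cd163 and Csf1r and of -0.57, -0.42 and -0.59 with Marco, Trem2 and Gpnmb. Trem2 had an r of 0.75 with Gpnmb and 0.61 with Marco. The libraries share 6 groups with different means, so these values describe the time course as much as the livers.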

How the data were processed

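Whole-liver messenger RNA was measured in 34 libraries, grouped by the labels into WT and SIRT1intKO at 0, 6 and 24 hours. The values the authors deposited are expected counts, which an nf-core workflow made by aligning reads with STAR and quantifying genes with Salmon, in 1 merged file and with no normalization. GRCm39 is named in the submitters' processing notes. Versions of these tools are not given in the sources used here. Of the 78298 genes, 4.97% of values were not whole, and all were rounded before testing. Left out was 1 column whose name fits no labelled library. The letter x is in 0 symbols of the table, so 1316 symbols were restored through gene identifiers with GENCODE vM21 names, none of them of the 10 genes. No pair of replicates looked like 1 library deposited again (chi-square per gene of at least 14.65).

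In R 4.3.3, edgeR 4.0.16 scaled libraries by TMM, filtered genes with filterByExpr (14980 left) and fitted 1 mean per group to all 34 libraries. Tests were quasi-likelihood F-tests, 2-sided, with Benjamini-Hochberg adjustment over all genes. Calls needed 0.05 for the adjusted p and 1 for the log2 fold change in either direction. SEs are the absolute log2 fold change over the square root of F, and are not given where p is over 0.95. CPM uses TMM-scaled library sizes, and log2 CPM a prior count of 2. Depth was 14892098 to 23480480 counts, so genes with the lowest CPM rest on a few counts. The fits were tested on simulated data.

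The genes and the lists were chosen with earlier results of these data known. Named were the 10 genes, at most 4 called genes per list with the largest change and a mean of at least 1 CPM, Csf1, Il34 and Tyrobp, and the 5 genes most like Clec4f and Trem2. Promoters came from RefSeq (GRCm38.p6), a build other than that of the counts, and were matched by symbol. Alternatives were DESeq2 1.42.0, its size factors in edgeR, upper-quartile scaling, at least 1 count or at least 10 counts in every library as the filter, only the groups compared, a test against the fold threshold (glmTreat), adjusted p alone, a replicate block, and each library left out. Leaving out the 3 livers that stood apart was added after seeing the data. Of the list of transcription factors, 1 gene and the counts over that list are not reported here.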

Additional observations from a re-analysis of the deposited data

Results flagged for a closer look

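Of 60 combinations of gene and group, 12 held a liver whose distance from its nearest neighbour, over the group's range, passed Dixon's limit. For normally distributed values this limit flags about 1 in 20. It was applied to CPM without a log scale and to genes measured in the same livers, so whether 12 is an excess cannot be read from that rate. WT replicate 6 at 6 hours was high in Vsig4 (34.6 CPM, next 12.5) and Adgre1 (7.32 CPM, next 3.68). SIRT1intKO replicate 2 at 24 hours was high in Vsig4 (23 CPM, next 12.1) and Timd4 (8.81 CPM, next 3.3), and was also the liver with the most Marco. SIRT1intKO replicate 6 at 0 hours was high in Timd4 (7.82 CPM, next 5.04) and Cd5l (82.6 CPM, next 51.8). At 6 hours SIRT1intKO replicate 2 was high in Marco (16.3 CPM, next 8.08) and replicate 5 was low in Csf1r (8.03 CPM, next 11.9).

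Gpnmb had 1 high liver in each of 4 groups. These were WT replicate 2 at 0 hours (0.664 CPM, next 0.192), WT replicate 4 at 6 hours (4.97 CPM, next 1.57), WT replicate 3 at 24 hours (1.36 CPM, next 0.369) and SIRT1intKO replicate 6 at 24 hours (4.69 CPM, next 2.35).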

How the results depend on the processing

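Over all alternatives, 2371 of 2490 values of the 10 genes kept their direction and their side of the threshold. Of 26 called values none reversed, and calls were lost in 62 of their 524 alternatives. The numbers of genes called changed as follows. With at least 10 counts in every library, a filter that Timd4, Trem2 and Gpnmb did not pass, 0 were called higher in WT livers at 6 and at 24 hours against 0 hours, and 1 in each SIRT1intKO comparison over time. With only the groups compared, 1 was called higher at 6 hours in each genotype and 0 in WT livers at 24 hours against 0 hours. There Gpnmb at 6 hours in each genotype, and Trem2 in SIRT1intKO livers at 6 hours and WT livers at 24 hours, did not pass the filter and were not tested. In the same setting 1 was called lower in WT livers at 24 against 6 hours and 0 higher between genotypes at 24 hours. With glmTreat, 0 were called lower in WT livers at 24 hours against 0 or 6 hours, 0 higher or lower in SIRT1intKO livers at 6 hours, 1 higher in SIRT1intKO livers at 24 against 6 hours and 0 higher between genotypes at 24 hours. By adjusted p alone, 1 was called lower in WT livers at 6 hours and 2 in SIRT1intKO livers at 24 hours against 0 hours. DESeq2, and leaving out the 3 livers that stood apart, each called 2 higher between genotypes at 24 hours and 1 interaction at 24 hours. Without 1 library, 1 to 2 were called higher and 2 to 6 lower in WT livers at 24 hours against 0 hours, 1 to 4 lower in WT livers at 24 against 6 hours, 1 to 3 higher and 3 to 5 lower in SIRT1intKO livers at 6 hours, 0 to 2 higher between genotypes at 24 hours and 0 to 1 interactions at 24 hours.

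The replicate numbers did not pair the livers, since deviations of same-numbered livers had a median correlation of -0.00364 over 76 pairs, beside 0.00607 over 403 others. A replicate block left 1 gene called lower in WT livers at 24 against 6 hours, and 1 higher and 1 lower in SIRT1intKO livers at 24 against 6 hours. It also lost the calls of Csf1r in WT livers at 24 hours against 0 hours (-0.985, 5 left lower) and of Clec4f in SIRT1intKO livers at 6 hours (-0.918, 3 left lower). It also turned the signs of Adgre1 between genotypes at 0 hours (-0.0201) and of the Trem2 interaction at 24 hours (-0.14). That interaction was -0.00317 with only the groups compared, and -0.36 to 0.25 without 1 library. The other signs that turned without 1 library were all of values that were not called. Between genotypes at 0 hours they were Adgre1 (-0.22 to 0.18), Cd5l (-0.0924 to 0.24), Vsig4 (-0.0281 to 0.24) and Gpnmb (-1.37 to 0.23). At 6 hours they were Marco between genotypes (-0.44 to 0.13), Vsig4 in WT livers (-0.65 to 0.0153), Cd163 in SIRT1intKO livers (-0.31 to 0.0124) and the Gpnmb interaction (-1.88 to 0.16). At 24 hours they were Clec4f between genotypes (-0.39 to 0.16, and 0.12 without the 3 livers) and the Cd5l interaction (-0.0307 to 0.65). The causes were not tested. Depth limits Trem2 and Gpnmb at 0 hours, where livers held 0 to 13 counts.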

Other observations

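By the measure used for Clec4f and Trem2, and chosen after the values were seen, the genes closest to Marco over the 34 libraries were F13a1 (Pearson r = 0.87), Apoc2 (0.86), Mlkl, Ap1s1 and Anxa5 (0.85 each). Those closest to Gpnmb were Fkbp10 (0.86), Emp1 (0.85), Pcdh7 and Heg1 (0.84 each) and the collagen gene Col1a1 (0.83). Those closest to Vsig4 were the complement genes C1qc (0.95) and C1qb (0.89) and the properdin gene Cfp (0.89), with C1qa and Aif1 at 0.88. Cd163 had the weakest neighbours, led by Hopx (0.79).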
